A study of Mus musculus with 8 samples.

Results

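Transcript signal was described in control mouse embryonic stem (ES) cells, using the 3 arrays of 8 in the series whose titles name the hairpin against GFP, and no knockdown array entered any value. These were male ES cells of strain 129S4/Svjae (agouti phenotype) grown in standard ES medium containing LIF, the leukemia inhibitory factor. They had been infected with a lentivirus carrying a short hairpin RNA against GFP, selected with puromycin and passaged 2-3 times before total RNA was extracted. The remaining 5 samples carried hairpins against Jmjd2b or Jmjd2c (also named Kdm4b and Kdm4c), and infection and puromycin selection were common to all 8. The control cells were therefore not untouched ES cells. The labels do not say whether the 3 arrays came from separate infections or cultures, so the spread between them may be technical. In these 3 arrays 18193 genes were measured, and a gene measured by several probe sets was read from the one with the highest mean of the 3.

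ES cells are cultured derivatives of the early embryo that renew themselves and can form all tissues of the body. A small circuit of transcription factors around Oct4 (encoded by Pou5f1), Sox2 and Nanog maintains this state, and LIF sustains it in culture through the JAK and STAT3 pathway. Mouse ES cells kept with LIF usually resemble the naive epiblast of the preimplantation embryo, and they leave that state through a formative and a primed stage before lineage genes are switched on.

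The labelled cell type was checked on 4 marker genes. Pou5f1, which encodes the central pluripotency factor, had intensities of 7784, 7870 and 7832 in arrays 1, 2 and 3 (7829 ± 43.0, SD, n = 3). Sox2, its DNA-binding partner, had 9542, 9592 and 9698 (9611 ± 79.4). Zfp42, also known as Rex1 and a marker of the naive state, had 9043, 8893 and 9011 (8982 ± 79.2). Klf4, a factor used with Oct4 and Sox2 in reprogramming, had 6201, 6039 and 6831 (6357 ± 419). All 4 lay above the 95th percentile of gene intensities (2948) in each array, and their arrays stayed close together.

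Intensity here is the brightness of a probe set in the array's own linear units. It depends on the affinity of the probes as well as on the amount of transcript, so an order of genes by intensity is an order of signals and not of molecules per cell. In bulk RNA, a signal carried by few cells and a low signal carried by all cells cannot be told apart. No detection calls were used, so background was read from 132 genes of families that ES cells are not known to use: olfactory, vomeronasal and taste receptors, beta-defensins and hair keratin-associated proteins. The 95th percentile of these genes served as each array's ceiling of background and lay at 53.9, 52.4 and 51.9. A gene was called above the ceiling if it exceeded it in all 3 arrays, not above if it did so in none, and mixed otherwise.

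By this rule 10474 of 18193 genes (57.6%) lay above the ceiling, 6775 (37.2%) did not, and 944 (5.19%) were mixed. Probe sets that the annotation gives to several genes were left out, and 53 of the genes not above or mixed also share such a probe set that exceeded the ceiling. The median gene had a mean intensity of 102, the quartiles were 24.1 and 545, and the 99th percentile was 7427. Among genes above the ceiling the median was 420, with quartiles of 166 and 1155. In all, 2957 genes reached 1000, 406 reached 5000 and 76 reached 10000. The brightest 100 genes carried 10.5% of the summed intensity and the brightest 1000 carried 47.5%. The silent genes had a median of 12.7, and 7 of them exceeded the ceiling.

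**Figure D1:**
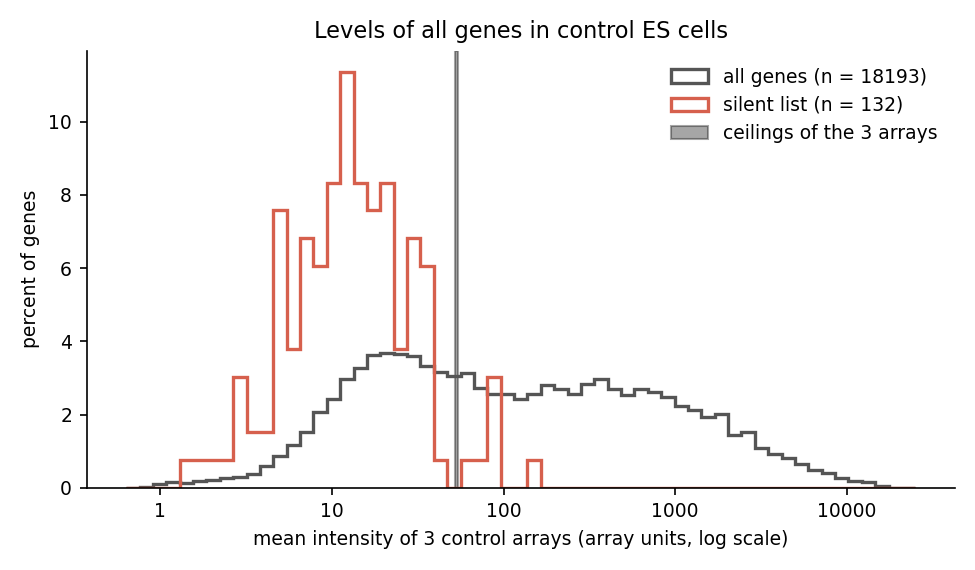
Distribution of the mean intensity of 3 control arrays (horizontal axis, log scale, array units) over 18193 genes and over the 132 genes used to read background, each in percent of its genes (vertical axis). The ceilings of the 3 arrays (51.9 to 53.9, grey) fall on a broad distribution with no gap, so the class of genes near them depends on the rule.

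The brightest genes made the machinery of protein synthesis. Ribosomal protein genes took 19 of the 25 brightest places, and Rps29, Rps20, Rps28 and Rpl13a led them. Rps29, a protein of the small subunit, had 16630, 17096 and 17093 (16940 ± 268). Rpl13a, of the large subunit, had 16002, 15894 and 15779 (15892 ± 112). The other 15 were Rps18, Rps24, Rplp2, Rpl35, Rpl37a, Rps3a1, Rpsa, Rps10, Rpl4, Rpl38, Rpl7, Rps14, Rpl22, Rps19 and Rps7, with means from 15643 for Rps18 to 13475 for Rps7. Of 43 cytosolic ribosomal protein genes measured, 42 lay above the ceiling, with a median of 13358 and a median SD of 0.03 on the log2 scale. Rps16 was the exception, at 5.34, 1 and 3.13, and was read from 1 probe set. Rps27 (120 ± 12.4) and Rpl12 (405 ± 120), also read from 1 probe set each, lay above the ceiling but far under that median. The part of probe set choice in these low values was not tested. Among the brightest, Rps29, Rps20, Rpl13a and Rps18, with others, were read from probe sets whose names mark shared probes. For Rps18, 3 of its 6 probe sets exceeded the ceiling. The part of shared probes in the rank of these bright genes was not tested either. The other 6 of the 25 brightest were Eef1a1, the elongation factor that brings tRNA to the ribosome (14574 ± 167), Tpt1 (14292 ± 475), the RNA-binding gene Serbp1 (14274 ± 369), the chaperones Hsp90aa1 (14049 ± 259) and Hspa8 (13943 ± 141), and Bex1. Bex1, an X-linked gene known for expression in brain, had 14137, 14949 and 13857 (14315 ± 567).

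Every measured gene of the central housekeeping lists lay above the ceiling. These were 13 of 13 translation factors (median 10211), 14 of 14 chaperones (8198), 14 of 14 cytoskeletal genes (7482), 16 of 16 glycolytic genes and transporters (7210), 19 of 19 respiratory chain and ATP synthase genes (5665) and 16 of 16 proteasome subunits (5500). All translation factors, chaperones, respiratory genes and proteasome subunits also stood in the brightest decile of genes. The aldolase gene Aldoa (12092 ± 899), the lactate dehydrogenase gene Ldha (11540 ± 247) and the kinase gene Pgk1 (11225 ± 210) were the brightest in glycolysis, and the muscle phosphofructokinase gene Pfkm had 314 ± 18.3. The lactate exporter Slc16a3, used by many strongly glycolytic cells, was its dimmest at 87.1, 77.7 and 89.0, while the related exporter Slc16a1 had 2944 ± 491. Cox5a, a subunit of cytochrome oxidase, led the respiratory list at 12241 ± 174, with Cox6a1 of the same complex at 10511 ± 436 and the ATP synthase gene Atp5b at 9897 ± 286. Its dimmest were Sdha (2566 ± 143) and Ndufs1 (2542 ± 76.8), of complexes II and I. After Eef1a1 and Tpt1 the brightest translation factor was the poly(A)-binding gene Pabpc1 (13182 ± 411), and the dimmest were the cap-binding gene Eif4e (2864 ± 173) and Eif5b (1898 ± 114). Cct4, of the chaperonin that folds actin and tubulin, had 12706 ± 168, and the dimmest chaperones were Hspa9 (5144 ± 240) and Hspa5 of the endoplasmic reticulum (3640, 5538 and 4830). In the proteasome Psma3 (8271 ± 197), Psma6 (6761 ± 108) and Psmb4 (6561 ± 421) of the core particle were brightest, and Psmc1 (2251 ± 176) and Psmb7 (1943 ± 67.5) dimmest. The cytoskeletal list ran from the actin genes Actg1 (11730 ± 762) and Actb (10727 ± 587) and the actin-binding gene Tmsb10 (11803, 11667 and 11662) to Tpm1 (363 ± 55.4) and Myl6 (123 ± 20.5). All 73 measured mitochondrial ribosomal protein genes exceeded the ceiling too, with a median of 1788.

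Naive pluripotency genes gave signal without exception, most of it strong. All 20 measured members lay above the ceiling, 14 of them in the brightest decile of genes, and the list median was 2619 against 102 over all genes. Dppa5a, an RNA-binding protein of ES cells, was the brightest at 12911, 13151 and 12959, and after Zfp42 and Klf4 came Nanog with 5714, 5316 and 6022 (5684 ± 354). Klf2 had 4647 ± 465, the transcription factor Tfcp2l1 had 3707 ± 386, and the orphan receptors Nr5a2 and Esrrb had 2752 ± 277 and 2751 ± 394. The germline regulator Prdm14 had 862 ± 149 and the homeobox gene Gbx2 had 252 ± 33.6. Dppa3, also called Stella, was one of the dimmest and its arrays differed, with 85.7 in array 1 against 201 and 234 in arrays 2 and 3. Zfp57, which protects imprints, was the dimmest of the 20 at 131, 133 and 148.

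The core and general pluripotency list held 19 measured genes, all above the ceiling, with a median of 2762. After Sox2 its brightest was Tdgf1, the Nodal co-receptor Cripto (9274 ± 193), followed by the corepressor Trim28 (7999 ± 551). L1td1 had 4833 ± 328, Sall4 had 4606 ± 567 and the methylcytosine dioxygenase Tet1 had 4077 ± 545. Lin28a, which blocks maturation of the let-7 microRNAs, had 1881 ± 175, and Utf1 had 1976 ± 274. At the dim end were Foxd3 at 200, 169 and 150 and Alpl, the alkaline phosphatase used to stain ES colonies, at 362, 467 and 482.

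**Figure D2:**
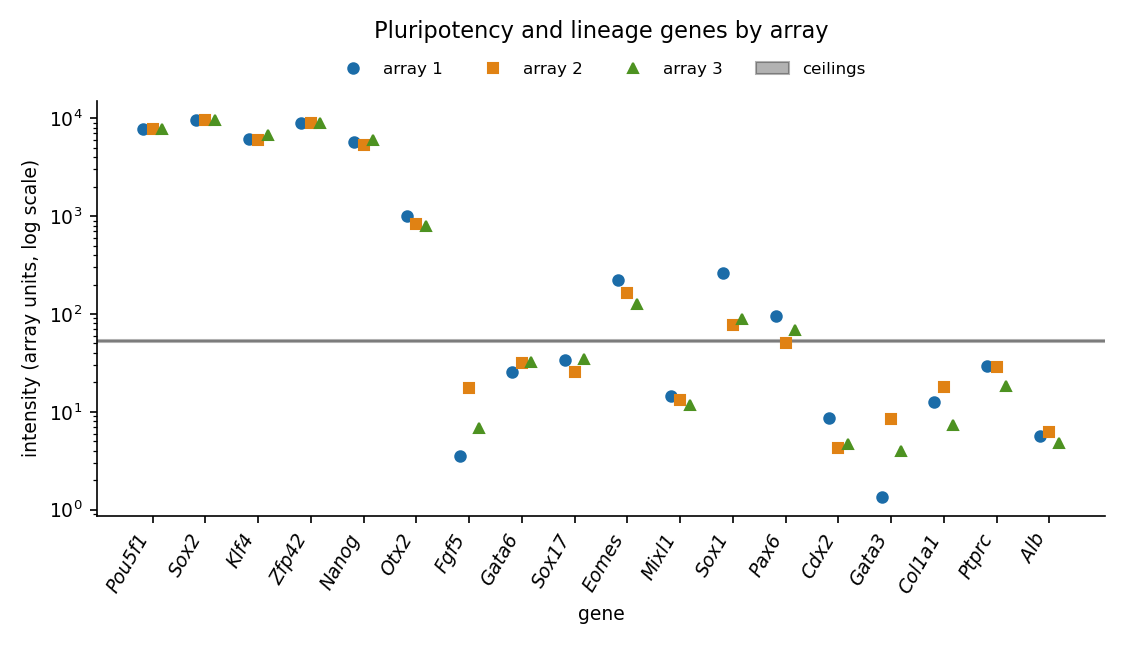
Intensity (vertical axis, log scale, array units) of 18 genes in control array 1, 2 and 3, with the ceilings of the 3 arrays in grey. The 5 pluripotency genes on the left lie above 5000 in every array, while Fgf5, Gata6, Sox17, Mixl1, Cdx2, Gata3, Col1a1, Ptprc and Alb lie under the ceilings; Otx2, Eomes and Sox1 lie above in all arrays.

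Of 16 genes of the formative and primed epiblast, 10 lay above the ceiling, a share (62.5%) near the 57.6% of all genes, 1 was mixed and 5 were not above, with a median of 340. Igfbp2, a binding protein for insulin-like growth factors, was the brightest at 6989 ± 634. The de novo methyltransferase gene Dnmt3b had 1421, 2645 and 1793, Sox4 had 1427 ± 136, and Otx2, a factor of the transition out of the naive state, had 992, 824 and 797. Pou3f1 (Oct6) had 290 ± 87.1. By contrast Fgf5, the classic marker of the primed epiblast, had 3.57, 17.5 and 6.77, Fgf8 had 10.1, 6.4 and 6, and the secreted antagonist Cer1 had 12.4, 8.44 and 6.43. All 3 of these lay under the ceiling in every array. For the 2-cell-like state, a rare state of ES cultures, 4 genes were measured. Zfp352 (7.99 ± 0.69), Tcstv1 (3.82, 20.1 and 4.06) and Tcstv3 (9.60 ± 1.34) were not above the ceiling, and Eif1a, a translation factor gene that other cells also use, had 2927 ± 135.

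Most lineage lists had medians under the ceiling, and only some of their members gave clear signal. For primitive and visceral endoderm 6 of 18 genes exceeded the ceiling (33.3%, against 57.6% of all genes), 2 were mixed, and the median was 35.6. The factors that specify this lineage were not above: Gata6 had 25.4, 31.8 and 32.6, Gata4 had 25.6 ± 6.12, and Sox17 had 33.6, 25.8 and 34.9. The serum protein gene Afp had 13.0 ± 0.92 and Foxa2 had 13.1 ± 2.80. Of the 6 above it, 5 were matrix genes that many cell types express: Sparc (2312 ± 153), the laminin genes Lamb1 (540, 1139 and 782) and Lama1 (414 ± 68.8), and the collagen genes Col4a1 (152 ± 19.7) and Col4a2 (116 ± 21.3). The sixth was Amn, which encodes a partner of the visceral endoderm receptor cubilin, at 88.4, 93.4 and 96.6. Among definitive endoderm and gut genes 4 of 15 exceeded the ceiling (26.7%) and 1 was mixed, with a median of 31.4. Epcam, an adhesion molecule of ES cells and epithelia alike, led them at 1487, 2493 and 1974, and the homeobox gene Hhex had 224 ± 12.2. The tight junction gene Cldn6 was uneven at 189, 423 and 288.

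Mesoderm and primitive streak genes were dim, with 2 of 18 above the ceiling (1 with the 99th percentile of the silent genes as ceiling), 3 mixed and a median of 24.0. Eomes, a T-box factor of streak and trophoblast, was the brightest at 220, 163 and 125, followed by Wnt3a at 69.5 ± 5.86. Mixl1 had 14.5, 13.2 and 11.7, Kdr, the VEGF receptor of blood and vessel precursors, had 22.4 ± 0.79, and Evx1 (6.61 ± 3.79) and Wnt3 (5.27 ± 3.33) were also under the ceiling. Hand1, a factor of heart and trophoblast, was mixed at 44.3, 54.5 and 59.9. Neural genes gave 7 of 18 above the ceiling (38.9%, against 57.6% of all genes), 2 mixed and a median of 44.1. With a stricter ceiling, the 99th percentile of the silent genes, 4 of 18 were above. The RNA-binding gene Msi1 (754, 630 and 817), the neurofilament gene Nefl (466 ± 82.2) and the tubulin gene Tubb3 (397 ± 71.6) led this list. The proneural factors Neurog1 (4.93, 1 and 2.79) and Neurog2 (5.77, 13.9 and 10.4) and the glial factor Olig2 (7.48 ± 3.68) were under the ceiling in every array. Sox1, the earliest marker of neural commitment in ES cells, lay above it in all 3 arrays but was uneven, at 262, 76.3 and 88.1. Of its 2 probe sets only 1 was above the ceiling.

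Trophoblast genes gave 7 of 13 above the ceiling (53.8%, near the 57.6% of all genes), 2 mixed and a median of 126, itself near the 102 of all genes. Tfap2c (3219 ± 371), which ES and germ cells also use, was brightest, and the keratin genes Krt18 (690 ± 108) and Krt8 (438 ± 71.4) came next. Cdx2 and Gata3, which define the lineage, were under the ceiling in every array, with 8.65, 4.24 and 4.68 for Cdx2 and 1.34, 8.47 and 3.97 for Gata3. Hox genes, which pattern the body axis, gave 2 of 33 above the ceiling, 2 mixed and a median of 22.6. The 2 were Hoxa5 (155 ± 24.2) and Hoxa3 (67.9 ± 5.46). Hoxc13 was mixed (56.8 ± 5.84), and Hoxb5 (2.59 ± 1.52) and Hoxd12 (8.19 ± 3.78) were under the ceiling in every array.

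Markers of cells that could accompany ES cells were read the same way. Fibroblast and feeder genes gave 7 of 20 above the ceiling, 2 mixed and a median of 27.6. The defining collagen gene Col1a1 had 12.5, 17.7 and 7.34, Col3a1 had 33.0 ± 2.38, Postn had 11.9 ± 2.63, Dcn had 18.3 ± 3.69 and Fap had 6.75 ± 1.22, all under the ceiling. Col1a2 was mixed at 47.0, 43.4 and 61.2. The 7 above it were Fn1 (5228 ± 909), Vim (4922 ± 586), Acta2 (1634 ± 208), Fbln1 (414 ± 102), Pdgfrb (378 ± 17.9), Thy1 (114 ± 8.32) and Loxl1 (111 ± 21.7). Fn1, Vim and Acta2 encode fibronectin, vimentin and smooth muscle actin, Fbln1 a matrix fibulin, and Pdgfrb and Thy1 a receptor and a surface protein often used to mark fibroblasts. The part of such cells in these signals was not tested. No blood gene exceeded the ceiling in all arrays: of 11, 3 were mixed and 8 not above, with a median of 24.0. The mixed genes were the blood factors Tal1 (76.9, 50.7 and 94.4), Spi1 (44.6, 55.6 and 52.0) and Gata1 (55.5, 45.7 and 43.3). Among the rest the leukocyte gene Ptprc had 25.4 ± 6.01, the globin gene Hba-a1 had 6.22 ± 1.46, and Itgam had 2.88, 5.38 and 5.85. Muscle, liver and kidney genes gave 1 of 14, Nphs1 (143 ± 23.5), with 3 mixed and a median of 28.8, and Alb (albumin) had 5.71, 6.26 and 4.75. The muscle genes Myl2 (49.2, 65.7 and 65.4) and Acta1 (14.6, 38.2 and 96.4) were mixed, and the fibrinogen gene Fgb had 8.52 ± 5.83.

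**Figure D3:**
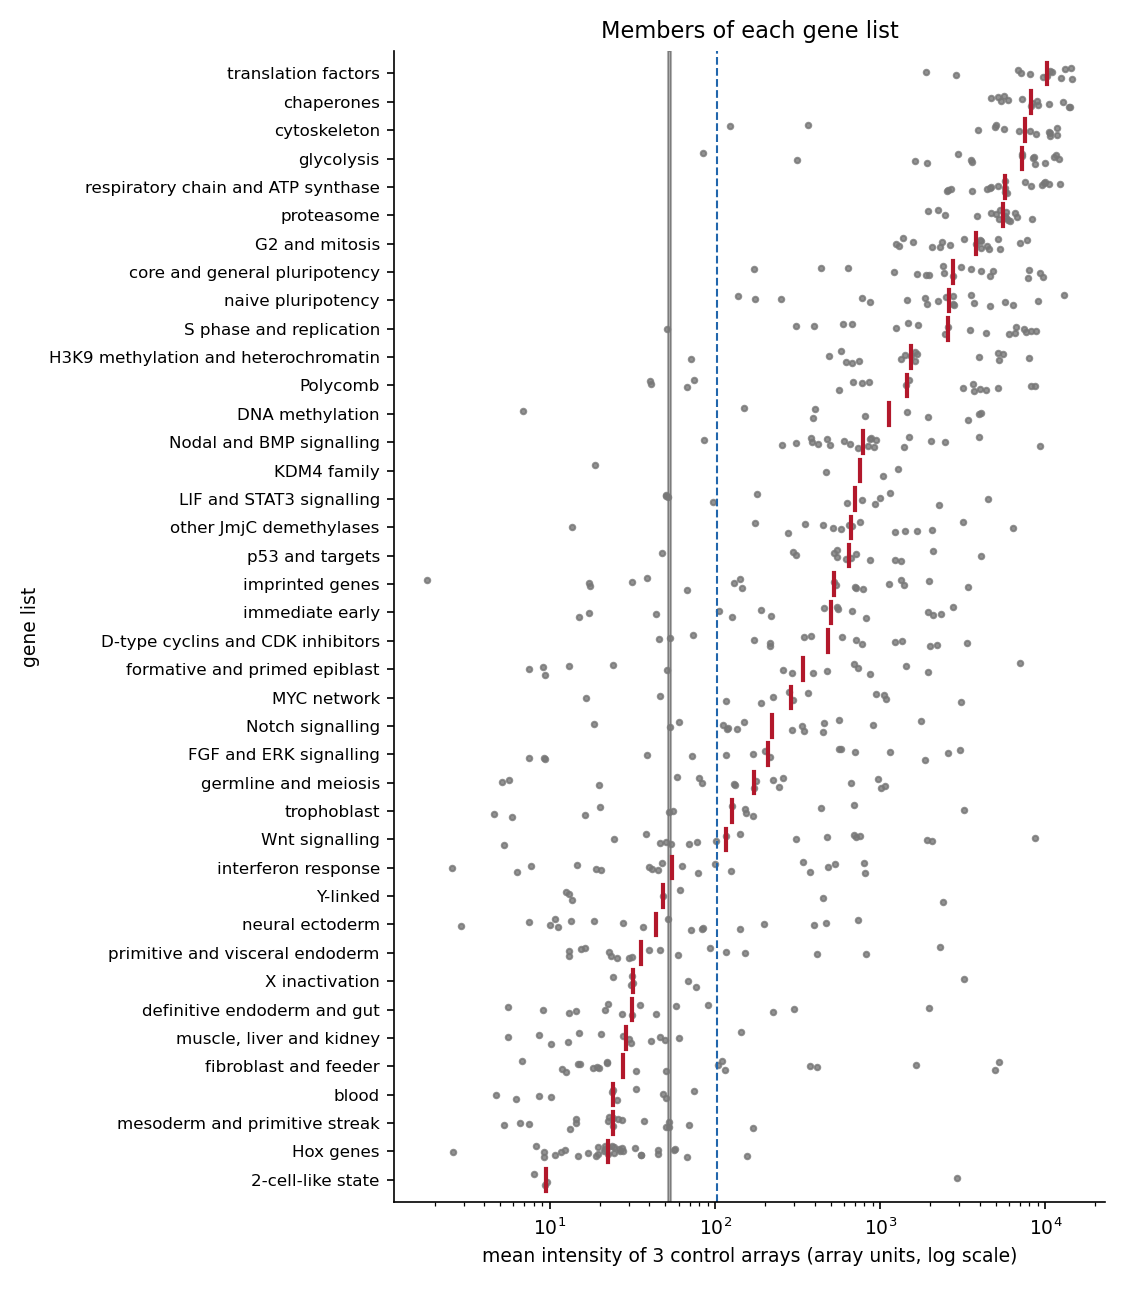
Mean intensity over 3 control arrays (horizontal axis, log scale, array units) of each measured member of 40 gene lists (grey points), ordered by list median (red bars). The grey band marks the ceilings and the dashed line the median of all genes (102); translation factors lie at the top with a median of 10211 and the 2-cell-like state at the bottom with 9.46.

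Germline genes had a higher median than any of the lineage lists, at 172. Of 17 genes 13 lay above the ceiling (76.5%, against 57.6% of all genes) and 1 was mixed. Sycp3, of the axis of meiotic chromosomes, had 1203, 882 and 1096, the germ cell helicase gene Ddx4 had 1148, 980 and 915, and the receptor gene Kit had 818, 948 and 1151. Stra8, an inducer of meiosis, had 310, 200 and 215, and Dazl had 283, 123 and 110. Sycp1 (19.8 ± 3.82), Tdrd1 (5.65 ± 1.11) and Tex101 (5.11 ± 0.97) were not above the ceiling.

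Signalling lists showed which parts of each pathway gave signal. In LIF signalling 9 of 12 genes exceeded the ceiling, with a median of 705. The receptor gene Lifr had 1890, 2492 and 2373, its partner Il6st (gp130) had 934 ± 171, and Stat3 had 779 ± 66.0. The feedback inhibitor Socs3, a direct target of STAT3, was the brightest at 4470 ± 380, and the phosphatase gene Ptpn11 had 1141 ± 157. Lif itself had 48.1, 51.8 and 51.5, and Il6ra and Socs1 were mixed.

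In FGF and ERK signalling 11 of 16 genes exceeded the ceiling (68.8%, against 57.6% of all genes), with a median of 208. Fgf4, the main FGF ligand of ES cells, had 1651, 1844 and 2062, whereas Fgf2, Fgf5 and Fgf8 all averaged under 10. Of the receptors, Fgfr1 had 215 ± 9.08 and Fgfr3 116 ± 10.1, Fgfr2 was mixed, and Fgfr4 was not above. The pathway targets Etv5 (3052 ± 327), Spry2 (2577 ± 254) and Spry4 (1152 ± 165) were bright, whereas Spry1 had a mean of 170. Dusp6, the ERK phosphatase, had 926, 642 and 544.

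All 22 measured Nodal and BMP genes exceeded the ceiling, with a median of 788. Beside Tdgf1, the nuclear cofactor Skil had 3964 ± 400 and the common mediator Smad4 had 2480 ± 90.3. The ligands Nodal and Bmp4 had 735 ± 132 and 602 ± 71.6, and Bmp7 was the dimmest at 85.1 ± 15.9, below the receptor gene Acvr2a (254 ± 45.7). The BMP targets Id1, Id2 and Id3, which restrain differentiation, had 861 ± 198, 882 ± 323 and 378 ± 72.3.

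Wnt signalling gave 11 of 19 above the ceiling (57.9%, near the 57.6% of all genes), 6 mixed and a median of 116. Ctnnb1, which encodes beta-catenin, was brightest (8698 ± 548), the co-receptor Lrp5 was not above the ceiling (24.3 ± 3.67), and the receptors Fzd5 and Fzd7 had 2051 ± 162 and 1915 ± 498. The 5 ligands listed averaged between 5.27 and 77.4. Of all 19 Wnt ligands measured, 5 exceeded the ceiling (26.3%), and the brightest was Wnt6 (212 ± 33.4), which is not in the list. Of the pathway's targets, Axin2 (116 ± 18.6) was above the ceiling and Sp5 (23.2, 54.5 and 36.9) was mixed. Notch signalling gave 14 of 16 (87.5%, against 57.6% of all genes), with a median of 221. Rbpj, the DNA-binding subunit shared by all Notch receptors, was brightest and very even, with 1774, 1769 and 1774, followed by the target Hes1 (906 ± 70.0) and the coactivator Maml1 (564 ± 24.4). The ligand Dll4 was mixed (53.1 ± 2.22), and the target Hes5 was not above the ceiling (18.4 ± 10.1).

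Chromatin regulators were mostly bright. The KDM4 family, whose members remove methyl groups from H3K9 and some of them also from H3K36, gave 3 of 4 above the ceiling. Of its members 2 were targeted elsewhere in the series. Kdm4c had 1332, 1300 and 1210 (1281 ± 63.2), Kdm4a had 953, 1046 and 1129 (1043 ± 87.6), and Kdm4b had 421, 339 and 643 (468 ± 157). Kdm4d, known for expression in testis, had 25.5, 16.4 and 14.5. Kdm4b was the least even of the 3 above the ceiling, with array 3 the highest. Among other JmjC genes 15 of 16 exceeded the ceiling (median 661), led by Kdm5b (6359 ± 502) and Jarid2 (3169 ± 431), with Jmjd1c at 2065 ± 159 and Phf2 at 174 ± 15.6. The exception was the Y-linked Kdm5d, at 7.18, 16.1 and 17.5.

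Polycomb genes gave 16 of 18 above the ceiling, with a median of 1459. The core of PRC2, the complex that methylates H3K27, was bright throughout: Ezh2 had 3692 ± 217, Eed 4395 ± 168 and Suz12 4005 ± 326. The brightest of the list were the histone-binding genes Rbbp4 (8677 ± 142) and Rbbp7 (8136 ± 357) and the PRC2 cofactor Mtf2 (5168 ± 568). In PRC1, which ubiquitinates histone H2A, Rnf2 had 3636 ± 119 and its paralog Ring1 had 40.9 ± 4.49. Of the CBX subunits Cbx7 (859 ± 108) was above the ceiling and Cbx8 (40.4 ± 3.95) was not.

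All 17 genes of H3K9 methylation and heterochromatin exceeded the ceiling (median 1541), from Trim28 to Cbx3 (70.9 ± 4.17). Cbx3 was read from its only probe set kept, since probe sets shared with other genes were left out. The demethylase gene Kdm1a had 5549 ± 287, the heterochromatin protein gene Cbx1 had 5216 ± 206, and the histone chaperone gene Daxx had 486 ± 110. In DNA methylation 9 of 10 did, with a median of 1123. The maintenance pair Dnmt1 and Uhrf1 had 3386 ± 324 and 3954 ± 163, Dnmt3l had 805 ± 137, and the methyl-CpG-binding gene Mbd1 had 150 ± 4.96. Of the dioxygenases, Tet1 and Tet2 (1441 ± 158) were bright and Tet3 had 5.07, 8.86 and 6.54, also in its only probe set kept.

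Cell cycle genes were bright. In G2 and mitosis 19 of 19 genes exceeded the ceiling (median 3810), and 18 of 19 did in S phase and replication (median 2558), where Tyms was mixed (49.0, 48.3 and 56.0). Pcna, the sliding clamp of DNA polymerases, had 8775 ± 306, the helicase genes Mcm7 and Mcm6 had 8145 ± 223 and 7653 ± 352, the cyclin gene Ccne2 had 308 ± 41.2, and Cdc20, an activator of the anaphase-promoting complex, had 7698 ± 340. Top2a had 7052 ± 230 and the mitotic kinase gene Cdk1 had 5284 ± 166, and Aurkb (1290 ± 74.1) and the kinetochore motor gene Cenpe (897, 1384 and 1459) were the dimmest mitotic genes. Among D-type cyclins, their kinases and inhibitors 13 of 16 exceeded the ceiling and 3 were mixed. Cdk4 had 3337 ± 103, Ccnd3 had 2220 ± 56.3 and Ccnd1 2012 ± 162, Cdkn1a (p21) had 1220 ± 79.0, and the inhibitors Cdkn2b (35.5, 57.4 and 45.1) and Cdkn2c (53.4, 51.0 and 54.3) were mixed. In the MYC network 10 of 12 exceeded the ceiling (83.3%, against 57.6% of all genes). Mycn had 3080 ± 430, Mxi1 1082 ± 141, Mnt 1056 ± 126 and Myc 187, 216 and 167. The MAX partners Mxd4 (46.1 ± 4.98) and Mxd1 (16.5 ± 5.63) were not above. For p53 and its targets 13 of 14 exceeded the ceiling, led by Ccng1 (4076 ± 271). Zmat3 had 2076 ± 260, Mdm2 1334 ± 139 and Plk2 295 ± 10.8, and Tap1 was mixed (44.1, 57.6 and 40.5). The proapoptotic gene Pmaip1 (Noxa) was uneven at 1078, 501 and 428, highest in array 1.

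Interferon response genes were mostly near background, with 9 of 20 above the ceiling, 3 mixed and a median of 55.0. The effector genes Mx1 (19.3, 19.8 and 17.9), Mx2 (2.56 ± 1.25) and Ifit1 (20.4 ± 8.40) and the regulator Irf7 (6.31 ± 1.68) were under the ceiling. Irf1 (805 ± 153), the class I histocompatibility gene H2-K1 (791 ± 91.8) and B2m (532 ± 93.9) were above it. So was another effector gene, Oas1a, with a mean of 483. Imprinted genes gave 13 of 19 above the ceiling (68.4%, against 57.6% of all genes) and 2 mixed, with a median of 527. Phlda2 (3405 ± 282) and Grb10 (1970 ± 130) were brightest, and the noncoding maternal transcripts Meg3 (1111, 1486 and 1565) and Rian (836, 1329 and 1226) were bright while their paternally expressed neighbour Dlk1 was not above the ceiling (17.3 ± 6.63). Zim1 (1.79 ± 0.43) was not above it either.

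Transcription factor families, grouped by symbol after their values were seen, differed in how many members gave signal. All 8 E2f genes and 13 of 16 Klf genes exceeded the ceiling, against 57.6% of all genes. Of 19 Sox genes 9 did, and of 37 Fox genes 16. Of 4 Zic genes 2 did. Smaller shares were found in the remaining transcription factor families: 2 of 11 Pou genes, 2 of 8 Pax, 1 of 12 Tbx (Tbx3, 1922 ± 279), 1 of 6 Gata (Gata2, 153 ± 24.6) and 0 of 8 Lhx, where 1 was mixed. Among cell surface families 3 of 21 cadherins exceeded the ceiling, with Cdh1, the epithelial cadherin of ES colonies, at 4774, as did 5 of 20 claudins and 9 of 24 integrins.

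The sex chromosomes were read against the label of male cells. Of all 9 measured genes of the Y chromosome 4 exceeded the ceiling (44.4%, against 57.6% of all genes). Of the 7 measured genes in the Y-linked list 3 did (42.9%). They were Eif2s3y (2240, 2464 and 2521), Uty (458, 420 and 462) and Uba1y (74.9, 52.8 and 55.4), the last only just in arrays 2 and 3. Sry, the testis-determining gene, had 13.0 ± 4.15 and Zfy2 had 12.6 ± 3.28. Xist, the noncoding RNA that coats the inactive X chromosome, had 58.1, 79.2 and 92.7 with its brightest probe set, and its other 2 probe sets were not above the ceiling, with means of 9.14 and 27.7. Rlim, an X-linked activator of Xist, had 3225 ± 504, and Jpx, a noncoding one, had 68.9 ± 4.7. Tsix, the antisense repressor, had 30.8 ± 3.77 and Tsx 24.1 ± 4.33, both under the ceiling. By chromosome, 53.7% of 618 X-linked genes exceeded the ceiling against 57.8% of 17516 autosomal genes. The lowest autosome was chromosome 6 (48.8% of 996 genes) and the highest chromosome 17 (62.2%), both named after their values were seen.

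Intermediate signals, close to the median of 420 over genes above the ceiling, came from genes of unlike kinds. List members nearest to it were the Nodal mediator Smad2 (421 ± 26.3), the laminin gene Lama1, Fbln1 (414 ± 102), the NuRD subunit Mbd3 (405 ± 22.8), Alpl, Krt8, the replication regulator E2f1 (398 ± 51.5), Tubb3, Uty and Notch1 (451 ± 85.4). Smad2 had 390, 433 and 438 and Mbd3 had 381, 427 and 405, while Fbln1 had 296 in array 1 against 479 and 466 in the others.

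By annotated gene type, 62.1% of 16473 protein-coding genes exceeded the ceiling, against 12.7% of 1458 long noncoding RNA genes and 0 of 24 V segments of antigen receptors, which only lymphocytes assemble. Choice of probe set mattered for the class. Of 6571 genes above the ceiling with more than 1 probe set, 3920 (59.7%) also had a probe set that was not above it. Taking the brightest probe set therefore gives genes with many probe sets more chances to pass.

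The spread between arrays was small, and relative to intensity it shrank as intensity rose. Over genes above the ceiling the median SD of log2(value + 16) was 0.12 (0.304 at the 95th percentile) and the median coefficient of variation was 8.54%. This coefficient was 42.0% in the dimmest decile of all genes and 5.60% in the brightest decile. The median SD did not fall throughout: it was 0.163 in the dimmest decile, 0.196 in the next and 0.081 in the brightest. Only 60 of the genes above the ceiling (0.573%) had a highest array at least 2 times the lowest in intensity. On log2(value + 16), arrays 1 and 2 differed at least 2-fold in 42 such genes, arrays 1 and 3 in 16 and arrays 2 and 3 in 2. The most even genes were the mitochondrial calcium uptake gene Micu3 (222 ± 0.11), the SUMO protease gene Senp2 (562 ± 0.41), Slc12a9 (177 ± 0.19), the mitochondrial ribosomal gene Mrps14 (4755 ± 6.94) and the Integrator subunit gene Ints3 (792 ± 1.24).

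**Figure D4:**
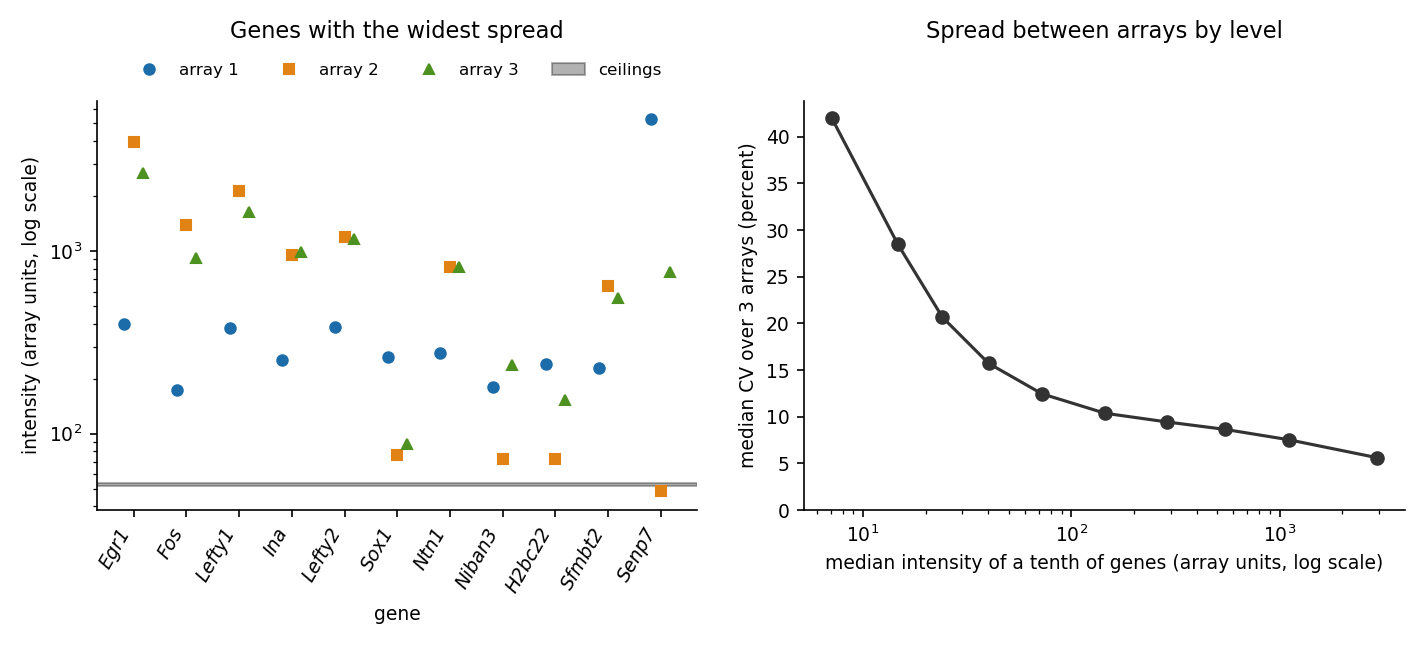
Left, intensity (vertical axis, log scale, array units) in each control array of the 10 genes above the ceiling with the largest SD of log2(value + 16), and of Senp7. Right, median coefficient of variation over 3 arrays (percent) in each decile of genes against the median intensity of that decile (log scale), from 42.0% to 5.60%. In Egr1, Fos, Lefty1, Ina, Lefty2, Ntn1 and Sfmbt2 array 1 is the lowest, and in Sox1, H2bc22 and Senp7 it is the highest.

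Genes with the largest spread were led by immediate early genes and Nodal antagonists, and array 1 set most of them apart. Egr1, a transcription factor induced within minutes by growth factors, had 399, 3944 and 2687, and Fos, a subunit of AP-1, had 172, 1383 and 917. Lefty1 and Lefty2, secreted inhibitors and targets of Nodal, had 377, 2142 and 1646, and 385, 1187 and 1168. Ina, a neuronal intermediate filament gene, had 253, 945 and 984, the guidance cue gene Ntn1 had 276, 813 and 813, and Sfmbt2, which encodes a Polycomb-related protein, had 229, 642 and 552. In all 7 array 1 was the lowest. Arrays 2 and 3 were nearly equal in Ina, Lefty2 and Ntn1, while in Egr1, Fos, Lefty1 and Sfmbt2 array 2 was above array 3. Sox1 and the histone gene H2bc22 (242, 72.9 and 153) were highest in array 1, and Niban3 (179, 72.6 and 239) in array 3. Array 1 lay at least 2-fold below both others in 12 genes above the ceiling and at least 2-fold above both in 3. Array 2 did so in 1 and 0 genes, and array 3 in none.

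The difference of array 1 was also read over whole lists, a reading chosen after the values were seen. Over immediate early genes the median of array 1 minus the mean of arrays 2 and 3 was -0.36 on the log2(value + 16) scale, and 14 of 16 genes were lower in array 1. Imprinted genes had a median of -0.32, with 16 of 19 lower. Over all genes above the ceiling the median was -0.06, with 6503 of 10474 lower. Over all 18193 genes it was -0.03, with 10098 lower. Trophoblast genes had a median of 0.27 and germline genes of 0.20, with 4 of 13 and 4 of 17 lower in array 1. Y-linked genes had 0.24 with 2 of 7 lower, neural genes 0.16 with 3 of 18 lower, and formative and primed genes -0.23 with 11 of 16 lower. Only 3 of the 7 Y-linked and 7 of the 18 neural genes lay above the ceiling, so dim genes weigh in their medians. After quantile normalization the medians were -0.31 for immediate early, -0.28 for imprinted, 0.29 for trophoblast, 0.19 for germline, 0.25 for Y-linked, 0.18 for neural and -0.14 for formative and primed genes and 0.02 over all genes above the ceiling, with 11 of 16 immediate early and 14 of 19 imprinted genes lower in array 1. Ier2 (1471, 2175 and 2195) and Dusp1 (2171, 3054 and 3041) were low in array 1, as were Jund (1716, 2219 and 2302), Jun and Junb, whereas Nr4a1 had 481, 440 and 452 and Atf3 had 103, 95.1 and 119. Egr3 (17.2 ± 1.54) and Fosb (15.0 ± 4.39) were under the ceiling. The ratio of 3' to 5' actin probe sets, a measure of RNA integrity, was 1.63 in array 1, 1.45 in array 2 and 1.56 in array 3. The same ratio for Gapdh was 0.980, 0.970 and 0.936. The part of RNA integrity in these differences was not tested.

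Core promoter sequence was set beside signal, since promoters rich in CpG dinucleotides are typical of widely used genes and those poor in CpG of genes limited to certain tissues. Promoter windows of 300 bases, from 250 before to 50 after the annotated start, were taken from RefSeq (GRCm38.p6) and found for 14452 of the genes. The measure was the ratio of observed to expected CpG, averaged where a gene had several windows. The 250 bases before the start are printed 5′ to 3′ on the gene's strand, with each CpG in capitals, for 3 bright pluripotency genes and 2 genes under the ceiling, chosen after their values were seen to show that either class can hold either kind of promoter. Of Pou5f1 and Nanog, which have 2 windows each, the first is shown.
Klf4, chr4:55532476-55532725, minus strand: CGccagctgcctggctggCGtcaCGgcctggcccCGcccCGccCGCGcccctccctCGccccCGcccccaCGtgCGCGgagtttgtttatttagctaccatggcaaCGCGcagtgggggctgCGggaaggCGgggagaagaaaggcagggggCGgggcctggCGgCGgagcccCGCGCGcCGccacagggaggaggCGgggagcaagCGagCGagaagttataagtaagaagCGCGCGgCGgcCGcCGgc
Pou5f1, chr17:35505782-35506031, plus strand: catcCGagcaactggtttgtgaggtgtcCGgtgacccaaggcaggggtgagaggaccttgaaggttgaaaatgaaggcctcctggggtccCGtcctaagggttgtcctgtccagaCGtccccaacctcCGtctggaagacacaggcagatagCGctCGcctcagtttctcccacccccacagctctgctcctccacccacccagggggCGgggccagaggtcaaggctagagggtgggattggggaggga
Nanog, chr6:122707239-122707488, plus strand: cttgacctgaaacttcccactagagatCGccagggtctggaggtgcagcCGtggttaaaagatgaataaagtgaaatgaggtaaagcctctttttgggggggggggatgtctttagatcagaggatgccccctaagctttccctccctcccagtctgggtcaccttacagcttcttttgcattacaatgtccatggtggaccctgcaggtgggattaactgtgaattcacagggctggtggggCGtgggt
Neurog1, chr13:56252181-56252430, minus strand: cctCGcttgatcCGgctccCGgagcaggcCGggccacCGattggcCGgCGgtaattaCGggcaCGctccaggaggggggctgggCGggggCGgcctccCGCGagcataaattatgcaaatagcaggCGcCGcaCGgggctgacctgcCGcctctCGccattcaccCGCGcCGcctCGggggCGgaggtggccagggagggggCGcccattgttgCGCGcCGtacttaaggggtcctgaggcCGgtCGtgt
Alb, chr5:90460620-90460869, plus strand: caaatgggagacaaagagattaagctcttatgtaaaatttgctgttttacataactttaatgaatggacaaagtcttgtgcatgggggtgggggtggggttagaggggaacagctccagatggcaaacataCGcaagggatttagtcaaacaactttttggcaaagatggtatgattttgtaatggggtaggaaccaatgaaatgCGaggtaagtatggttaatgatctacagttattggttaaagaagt
Klf4, at an intensity of 6357, had 32 CpG dinucleotides in the printed bases and a ratio of 0.974 over its window. Pou5f1, at 7829, had 8 and a ratio of 0.374, and Nanog, at 5684, had 3 and a ratio of 0.192. Neurog1, a silent neural gene with a mean of 2.91, had 29 and a ratio of 0.891. Alb, at 5.57, had 2 and a ratio of 0.272. Bright signal thus occurred beside CpG-poor windows in Nanog and Pou5f1, and signal under the ceiling beside a CpG-rich window in Neurog1.

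Over all genes with a window, the share above the ceiling was higher in each higher bin of the CpG ratio. It was 14.7% (370 of 2519 genes, exact 95% binomial interval 13.3 to 16.1) where the ratio was under 0.25. It was 37.4% (996 of 2666) from 0.25 to 0.5 and 69.6% (2578 of 3702) from 0.5 to 0.75. At 0.75 or more it was 82.8% (4606 of 5565, interval 81.7 to 83.8). These intervals cover counting error over genes only. The median ratio was 0.846 in the brightest decile of genes, 0.755 in the other genes above the ceiling, 0.552 in mixed genes and 0.330 in genes not above. Across genes, which are not independent replicates, the ratio and mean intensity had a Spearman rho of 0.550. In the brightest decile 21 of 1496 genes had a ratio under 0.25.

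**Figure D5:**
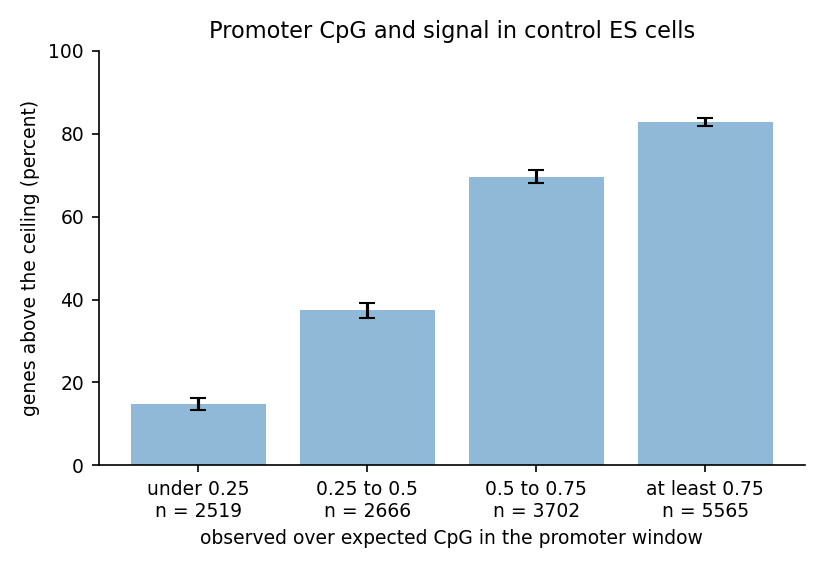
Percent of genes above the ceiling in all 3 control arrays (vertical axis) in 4 bins of the observed over expected CpG ratio of the promoter window (horizontal axis), with exact 95% binomial intervals and the number of genes in each bin. The share goes from 14.7% in the lowest bin to 82.8% in the highest.

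Lists did not all follow this order. The 13 neural genes with a window had a median CpG ratio of 0.815, beside 0.846 in the brightest decile of genes. The neural factor Olig2 had 0.815 and the trophoblast factor Cdx2 had 0.731, both under the ceiling. Naive pluripotency genes (14 with a window), all above the ceiling, had a median of 0.548 and core pluripotency genes (14) 0.611, with Zfp42 at 0.441, Tdgf1 at 0.545 and Sox2 at 0.819. Blood genes (9) had 0.316 and muscle, liver and kidney genes (12) 0.257. The letters TATAAA, on either strand and so also TTTATA, occurred in the windows of 1662 genes, of which 41.7% exceeded the ceiling, against 61.4% of the 12790 genes without them. A match to these letters is not evidence of a working TATA box.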

How the data were processed

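The authors deposited linear intensities, with 1 value for each probe set on each array. The sources used here do not give how probes were summarised, background was corrected and arrays were scaled. Per the labels' protocols, biotinylated cRNA was made from 5 ug of total RNA. Array medians lay at 44.8, 45.5 and 46.5, and values were not normalized further. The low end of the values differed between arrays. Values of exactly 1 numbered 412, 439 and 11 in arrays 1, 2 and 3, and values under 1 numbered 2, 1 and 173. Values this low, and their spread, may therefore not be comparable between arrays. Arrays have no read depth; their number, 3, limits the precision.

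Of 45101 probe sets, 34945 had 1 symbol in the platform annotation, 932 had several, 9160 had none listed and 64 were array controls. A gene table from RefSeq (GRCm38.p6) held 34741 of them, with 0 symbols to update. SDs and differences between arrays used log2(value + 16), which understates differences of dim genes. No test between groups was made. The classes, the spread and the 2-fold differences between arrays were checked on simulated data. Its background was drawn from the silent genes that set the ceiling, with the same noise at every level. The check therefore cannot judge the class of genes near the ceiling. Python 3.11.15, pandas 2.3.3, numpy 2.4.6, scipy 1.17.1 and matplotlib 3.10.9 were used.

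Named were the 25 brightest genes, the 10 with the largest and 5 with the smallest SD above the ceiling, the 10 list members closest to the median of genes above it, the 3 brightest and 2 dimmest of each list, all members of lists of 4, and 4 markers. Clone and predicted-gene names were passed over in the first 3 parts of this rule. Other list members were named to show the role of each list after their values were seen, as were gene families, chromosomes and printed promoters. The arrays and lists were chosen with earlier results of these data known. Alternatives were other ceilings, pseudocounts, probe set choices, quantile normalization, gene sets and leaving out each array.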

Additional observations from a re-analysis of the deposited data

How the results depend on the processing

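No paired analysis was possible because 1 group of arrays was described and its values come from no test. The count of genes above the ceiling stayed within 1.5 times 10474 under every alternative: 9018 with the 99th percentile of silent genes as ceiling, 11614 with the 90th, 8815 with a fixed ceiling of 100, 10474 after quantile normalization and 10016 with the mean of a gene's probe sets. Shares moved by more than their interval. With the 99th percentile, 8.61% of genes with a CpG ratio under 0.25 and 75.4% of those at 0.75 or more exceeded the ceiling, as did 49.8% of autosomal genes, 46.6% of X-linked genes and 40.2% on chromosome 6. With a ceiling of 100 these were 8.30%, 74.3%, 48.6%, 45.5% and 39.1%. With the 90th percentile the CpG shares were 22.3% and 87.3%, and with the mean of probe sets, an alternative chosen after seeing the data, the upper one was 80.4%. The lower bin stayed under the upper one throughout. Counts above the ceiling moved by over 1.5 times in at most 4 of 40 lists under any setting. These were neural (7 to 4), mesoderm (2 to 1), Hox (2 to 1) and X inactivation genes (3 to 1) with the 99th percentile and with a ceiling of 100. With the 90th percentile they were mesoderm (5), Hox (6), blood (3) and muscle, liver and kidney genes (3). With the mean of probe sets they were neural (4), blood (1) and X inactivation genes (1), and without probe sets whose names mark shared probes they were Hox genes (1). Without array 1, blood gave 1 and muscle, liver and kidney 2, and without array 2 blood gave 1. By contrast, the mean of probe sets moved 30 of 40 list medians and 28 of 54 named levels beyond the spread of the arrays. Leaving out probe sets whose names mark shared probes moved 14 of 40 list medians.

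The median SD was 0.0981 with a pseudocount of 64 and 0.139 over all genes, against 0.115. Genes at least 2-fold apart between arrays numbered 22 (1 and 2) and 1 (2 and 3) with a pseudocount of 64, and 108, 83 and 34 over all genes (1 and 2, 1 and 3, 2 and 3). With the mean of probe sets the count for arrays 2 and 3 was 1. Leaving out each array in turn gave 10582 to 10677 genes above the ceiling, 6909 to 6964 not above, a median SD of 0.0774 to 0.110, 58.4% to 58.9% of autosomal and 54.2% to 55.3% of X-linked genes, 49.2% to 49.8% on chromosome 6, and CpG shares of 15.0% to 15.9% and 83.1% to 83.6%. The dimmest signals, under about the ceiling, carry no order between genes.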

Other observations

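Senp7, which encodes a SUMO protease, was very uneven, and was singled out after its values were seen. Its brightest probe set had 5261 in array 1, 48.2 in array 2 and 770 in array 3, a 109-fold range, and its other 2 probe sets had means of 21.8 and 52.2. With Egr1, Fos and Lefty1 it was 1 of 4 genes whose highest array reached 500 and was over 5 times the lowest, and 0 probe sets without a symbol met that mark.

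Probe sets to which the annotation gives no gene symbol carried signal as well. Of them 1555 (17.0%) exceeded the ceiling, against 50.6% of probe sets with 1 symbol. In all 221 reached 1000, and the brightest had 16489.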
